A study of Drosophila melanogaster with 2 samples.

Results

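The transfer RNA (tRNA) genes of Drosophila melanogaster were described as targets in a chromatin immunoprecipitation (ChIP-seq) of Bgb-eGFP. Every gene of biotype tRNA on the main chromosome arms of the Ensembl BDGP6 annotation was taken, which gave 290 of the 24166 genes annotated there; the 22 tRNA genes of the mitochondrial genome were left out. A gene was called bound when the summit of a peak in the authors' conservative list lay within 200 bp of its start. That list holds the 4488 peaks that passed a comparison of the replicates by irreproducible discovery rate (IDR). By this rule 155 of the 290 tRNA genes were bound, or 53.4% (exact 95% interval 47.5 to 59.3), against 23.8% of 13968 protein-coding genes and 14.7% of all 23876 other genes.

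The material was whole embryos, 0 to 24 h old, of transgenic flies that express Bgb fused to enhanced green fluorescent protein; the labels give the strain as Bgb-GFP and no further treatment. There were 2 biological replicates of 1 group and no second genotype or condition, so no comparison between groups was possible; the control library named in the labels was not analysed here. The labels differ on the antibody, with GFP named in the free text and Bgb in the antibody entry. Chromatin was sheared by sonication from embryos of mixed ages, so a summit at a gene does not say in which cells or at which stage it arose. Peak lists do not give the read depth, so every interval covers counting error of genes or peaks only.

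Bgb (Big brother) is the fly homolog of CBF-beta, which does not bind DNA itself and works as the partner of Runt-domain transcription factors. tRNA genes are read by RNA polymerase III from a promoter that lies inside the gene: the factor TFIIIC binds an A box near the 5′ end and a B box further in, and TFIIIB is then placed just upstream of the start. Many tRNA genes exist as identical copies, spread over the genome or packed in small clusters, often within introns of protein-coding genes.

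The 6 sequences that follow are the strongest bound genes more than 1000 bp from any coding transcription start site (TSS), leaving out 1 chromosome arm and sequences with an identical copy on it, with 1 gene for each distinct sequence. They show where in the gene the summits fell. They were read from the RefSeq release 6 genome (dm6) on the gene strand, 5′ to 3′, and run the whole length of the gene. Capitals mark the A box letters TNGNNNA and the B box letters GTTCNANNC where a search found them. A seventh sequence, Lys-TTT-2-1, is the strongest gene by signal of a lysine isodecoder (a set of tRNA genes with the same anticodon and sequence class) without any bound member; it was chosen after its values were seen.
tRNA:Ala-AGC-2-11, chr3R:19790972-19791044, plus strand: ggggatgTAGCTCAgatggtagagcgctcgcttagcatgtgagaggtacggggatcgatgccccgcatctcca
tRNA:Cys-GCA-1-1, chr3L:3095737-3095808, plus strand: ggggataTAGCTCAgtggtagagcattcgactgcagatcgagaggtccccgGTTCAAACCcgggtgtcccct
tRNA:Ser-AGA-2-3, chr2L:3169582-3169663, plus strand: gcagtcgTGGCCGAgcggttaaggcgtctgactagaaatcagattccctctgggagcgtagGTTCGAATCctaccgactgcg
tRNA:Asp-GTC-2-1, chr2L:5240766-5240837, plus strand: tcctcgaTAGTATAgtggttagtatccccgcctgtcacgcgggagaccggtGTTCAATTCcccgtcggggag
tRNA:Ser-GCT-1-1, chr3R:22397180-22397261, minus strand: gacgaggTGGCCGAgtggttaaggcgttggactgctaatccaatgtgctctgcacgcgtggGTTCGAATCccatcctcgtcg
tRNA:Pro-AGG-1-4, chr2L:14599674-14599745, plus strand: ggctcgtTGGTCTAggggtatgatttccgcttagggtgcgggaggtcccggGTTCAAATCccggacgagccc
tRNA:Lys-TTT-2-1, chr3R:6819894-6819966, plus strand: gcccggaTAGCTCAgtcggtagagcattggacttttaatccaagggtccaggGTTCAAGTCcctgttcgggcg

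Summits fell inside these genes. Counting from the first base, the summit of Ser-AGA-2-3 lay at base 54, that of Asp-GTC-2-1 at base 50, that of Ser-GCT-1-1 at base 50 and that of Cys-GCA-1-1 at base 57. In the first 3 of these the summit lay between the A box and the B box, and in Cys-GCA-1-1 it lay within the B box letters, which start at base 52. The summits of Ala-AGC-2-11 and Pro-AGG-1-4 lay nearer the 5′ end, at bases 31 and 21, both past the A box. The B box letters searched were not found in Ala-AGC-2-11. The A box letters start at base 8 in all 7 sequences, Lys-TTT-2-1 included, and its B box letters start at base 53. The signal of Ser-AGA-2-3 was 319, with 166 in replicate 1 and 152 in replicate 2. Ser-GCT-1-1 had 315, with 111 and 207, and Pro-AGG-1-4 had 282, with 116 and 156. For these 2 genes the listed value of replicate 2 was the higher, but the replicates carry no common scale.

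The same held over the bound genes with no other tRNA start within 400 bp, for which the summit can be tied to 1 gene. In these 84 genes the summit lay a median of 43.5 bp downstream of the start, with the middle 50% from 35 to 51 bp and a range from 14 bp upstream (-14) to 120 bp. It lay 0 to 80 bp downstream of the start in 78 of 84 genes (92.9%, interval 85.1 to 97.3). At the 3325 bound protein-coding genes the median was -34 bp, on the upstream side, and 19.3% of summits lay 0 to 80 bp downstream. tRNA genes are short, with a median length of 73 bp, so most of these summits were inside the transcribed sequence. Of the 72 such genes without an intron in which both boxes were found, 59 (81.9%, interval 71.1 to 90) had the summit between the start of the A box and the end of the B box, 5 had it upstream and 8 downstream. The A box starts at a median of base 8 and the B box of intronless genes at base 53, so this span covers most of the gene.

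**Figure D1:**
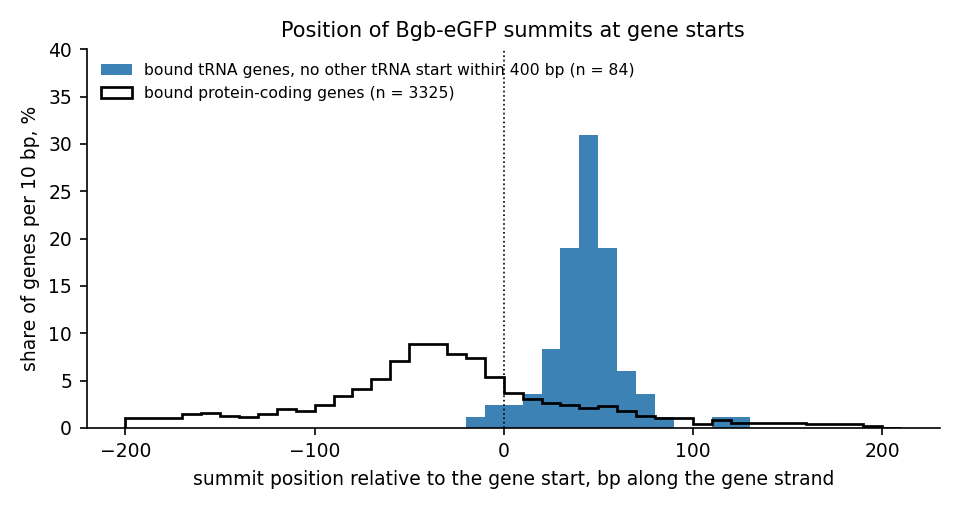
Share of genes (percent, per 10 bp) by the position of the Bgb-eGFP summit relative to the gene start, in bp along the gene strand. Filled bars are the 84 bound tRNA genes with no other tRNA start within 400 bp, and the outline is the 3325 bound protein-coding genes. The tRNA summits gather in the gene, with a median of 43.5 bp, and the coding summits lie mostly upstream of the start, with a median of -34 bp.

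The B box letters GTTCGANNC were found in 61.9% of bound genes (interval 53.8 to 69.6) and 47.4% of unbound genes (38.8 to 56.2), and in 1.38% of windows of the same length placed 1000 bp upstream; the difference was not tested. These intervals take each gene as independent. Of the 290 genes 238 had a copy of identical sequence, with the same letters, so the intervals may be too narrow. The A box letters TGGNNNAGT were present in 19.4% of bound and 19.3% of unbound genes. With looser letters, added after the data were seen, the shares were high in both. The A box letters TNGNNNA, starting at base 7 to 9, were found in 98.7% of bound and 99.3% of unbound tRNA genes. The B box letters GTTCNANNC were found in 94.8% of bound and 91.9% of unbound genes, and in 3.45% of the upstream windows. Matches were searched on the gene strand.

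Sequence motifs of other factors were rare at the tRNA summits. RACCRCA, the Runt-domain consensus, lay within 50 bp of 1 of 139 distinct tRNA summits (0.719%, interval 0.0182 to 3.94), against 4.85% of the other 4349 conservative summits. None of the 290 tRNA genes, many of them identical copies, held it within the gene. CGATAR, part of the motif of the promoter factors DREF and BEAF-32, lay within 50 bp of 11 tRNA summits (7.91%, interval 4.02 to 13.7), 39% of the other summits and 13.4% of the other summits over 1000 bp from a coding TSS. Within 25 bp it was found at 0.719% of tRNA summits, 26.3% of the others and 6.94% of the other distal summits. Unbound tRNA genes held few matches too. In windows centred 45 bp into the gene, CGATAR was found in 9.63% of 135 unbound and 9.03% of 155 bound genes. Most of the 11 tRNA summits with CGATAR were at Asp-GTC or Tyr-GTA genes. In Asp-GTC-2-1, printed above, CGATAG is part of the gene and runs into the A box letters. Copies share such letters, so the interval for CGATAR may be too narrow. RACCRCA was found there in 1.48% of unbound genes and 0 of the bound genes. The scarcity was thus not particular to the bound genes. Both motifs were searched on both strands. The lack of these letters in a window says nothing on whether a factor was there.

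The 155 bound genes shared 139 distinct summits, which made up 3.1% of the conservative list. Of these summits 117 (84.2%) lay inside a tRNA gene and 22 served at least 2 genes. For 20 of the 155 bound genes the summit lay nearer to the start of another tRNA gene, so the call of those genes may belong to a neighbour; 3 of the 20 also had a weaker summit of their own, and 17 did not. The summits had a median signal of 198, with the middle 50% from 131 to 274 and a highest value of 539.6. Other conservative summits had a median of 143, those within 200 bp of a coding TSS 161, and other summits over 1000 bp from a coding TSS 111. These signals are the authors' values, and their scaling is not given. The best placed tRNA summit ranked 287 of 4488, so tRNA summits were of middle to upper strength and were absent from the top of the list.

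Each replicate on its own gave a similar count of tRNA genes. The thresholded list of replicate 1 called 147 of 290 (50.7%) where it called 28.5% of protein-coding genes. The list of replicate 2 called 150 (51.7%) where it called 18.2% of protein-coding genes. The second series list called 168 (57.9%), with 28.7% of protein-coding genes. Of the 155 bound genes, 128 were called in both replicate lists, 140 in that of replicate 1, 141 in that of replicate 2 and 2 in neither. The replicate 1 list is longer, with 6061 peaks against 3200, so its tRNA summits made up 2.24% of it and those of replicate 2 made up 4.22%.

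The ratio of replicate 1 to replicate 2 signal was lower at tRNA summits than at most other peaks. At 133 tRNA summits with a value in both ranked lists, the log2 ratio of replicate 1 over replicate 2 signal had a median of 0.23, with the middle 50% from -0.11 to 0.54. The median ratio was 0.69 at 4182 other conservative summits and 0.58 at 574 others over 1000 bp from a coding TSS. Replicate 1 was higher at 88 of 133 tRNA summits (66.2%, interval 57.5 to 74.1) and at 93% of the others. Among summits within the middle 50% of the tRNA signal range the medians were 0.22 for 68 tRNA summits and 0.75 for 1371 others. The replicates carry no common scale, so the ratio itself has no zero point, and with 1 pair of libraries the difference between the groups of summits was not tested.

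**Figure D2:**
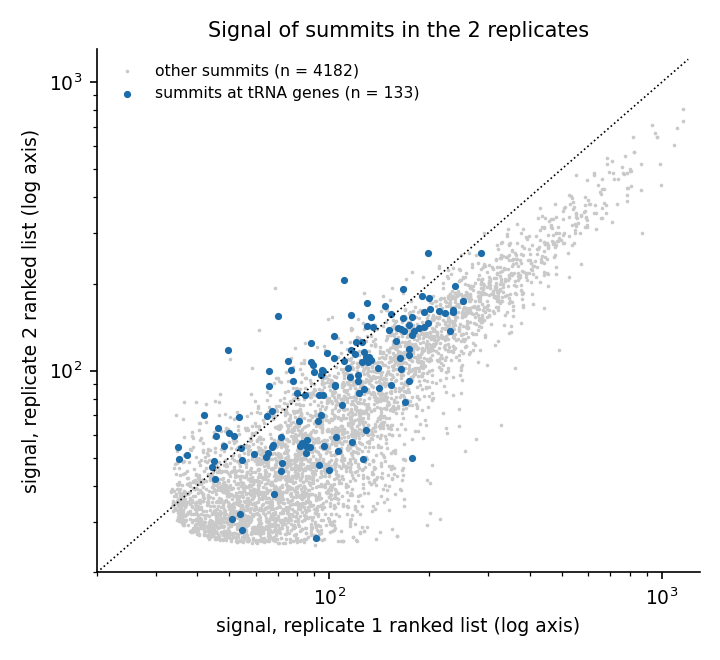
Signal of conservative summits in the ranked lists of replicate 1 and replicate 2, both on log axes. Blue points are 133 summits at tRNA genes and grey points 4182 other summits; the dotted line marks equal values. Blue points lie mostly along the upper edge of the grey cloud, with a median log2 ratio of 0.23 against 0.69.

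The strongest tRNA gene was Gly-TCC-1-2, a glycine tRNA 542 bp from the start of CG31493 on arm 3R. Its summit had a signal of 539.6 in the series list, 285 in replicate 1 and 256 in replicate 2. Glu-CTC-2-3 on 3L, 5716 bp from a coding TSS, had 462, with 198 and 256 in the replicates. Ser-AGA-2-4 on 2L had 429, with 252 and 175. Each of these had a high value in both replicates, and the listed value of replicate 2 was the higher only for Glu-CTC-2-3. A summit between Arg-ACG-1-4 and Lys-CTT-1-5 on 2R had 479.7 and a value of 256 in replicate 1, but no ranked summit lay within 200 bp of either start in replicate 2. Asn-GTT-1-7 and Asn-GTT-1-8, in an intron of Ptr, shared a summit of 438, with 238 and 197 in the replicates. The summit lay 25 bp into Asn-GTT-1-8 and 195 bp upstream of Asn-GTT-1-7.

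The next genes in order had closely spaced values. Ser-CGA-1-4 and Val-AAC-2-1, in an intron of hts (the fly adducin), shared a summit of 398, with 236 and 160.4 in the replicates. Phe-GAA-1-4 and Phe-GAA-1-5 shared 393, with 231 and 137. Leu-AAG-1-3 had 388, with 236 and 162. In the serine and valine pair and in the phenylalanine pair the summit lay inside the first gene named. Phe-GAA-1-5 also had a summit of its own, 9 bp past its start, with 229 (123 and 83.4 in the replicates). Asn-GTT-1-1, in an intron of the ecdysone receptor gene EcR, had 377, with 222 and 158. His-GTG-1-4 had 375, with 189.7 and 182, and Pro-CGG-2-3 had 367, with 199 and 179. Asp-GTC-1-5 and Asp-GTC-1-4, 386 and 524 bp from a start of the semaphorin gene Sema1a, shared 364, with 200.4 and 163. From Ser-CGA-1-4 on, the listed value of replicate 1 was the higher for each gene named here. The other genes of the strongest 20, with a tie at the last place, were Leu-CAG-1-6 in Sarm, at 359.7, Ile-AAT-1-8 in ATP8A, at 351, and the neighbours Gly-GCC-1-12 and Trp-CCA-2-4, at 344. The last of these summits lay inside Gly-GCC-1-12 and 135 bp upstream of Trp-CCA-2-4.

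By amino acid, binding was broad. At least 1 gene was bound in 21 of 22 classes, counting initiator methionine (iMet) and selenocysteine (SeC) apart, and for 43 of 45 anticodons. The exceptions were the SeC gene, SeC-TCA-1-1, and the 6 genes of the lysine anticodon Lys-TTT. Of these lysine genes, 4 lie in a stretch of 74 kb without a summit in any thresholded list, described further on. SeC-TCA-1-1 was called by the second series list and the list of replicate 1, with ranked signals of 58 in replicate 1 and 16.9 in replicate 2. The shares by class ran from 8 of 10 asparagine genes (80%, interval 44.4 to 97.5) and 16 of 22 leucine genes (72.7%, 49.8 to 89.3) down to 7 of 19 lysine genes (36.8%, 16.3 to 61.6), 6 of 19 glutamate genes (31.6%, 12.6 to 56.6) and 1 of 6 iMet genes (16.7%, 0.421 to 64.1). Counting only summits nearest to the own start, 6 of the 10 asparagine genes and 4 of the 13 Lys-CTT genes were bound. Under the 200 bp rule the interval of every class contains the share over all tRNA genes, so no class stood apart at these gene numbers. Of the unbound glutamate and iMet genes, 5 and 2 lie in a stretch of 87 kb without any thresholded peak, described further on; with these counted the shares would be 11 of 19 and 3 of 6.

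**Figure D3:**
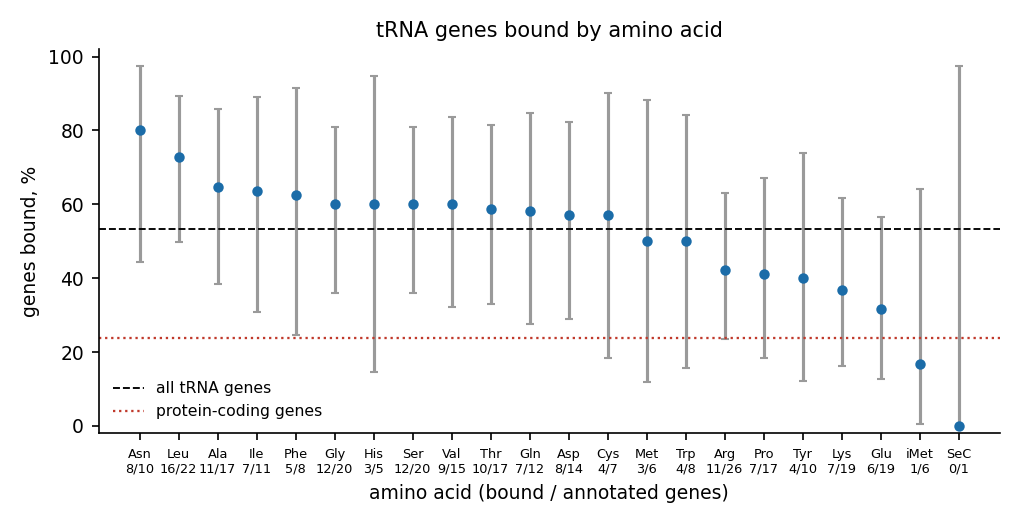
Percent of tRNA genes bound for each amino acid, with the numbers of bound and annotated genes under each name. Points are shares and bars exact 95% intervals; the dashed line is all tRNA genes (53.4%) and the dotted line protein-coding genes (23.8%). Each bar crosses the dashed line. Not counted as bound are 5 Glu and 2 iMet genes in a stretch without thresholded peaks, and 4 Lys genes in another.

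The strongest gene of each class had a signal from 169 to 539.6 in the 21 classes with a bound gene. Classes not met among the strongest 20 were led by Ala-AGC-2-11 at 343 (193 and 160.0 in the replicates), Cys-GCA-1-1 at 328 (173 and 144), Gln-TTG-1-2 at 321 and iMet-CAT-1-5 at 316 (177 and 153). The summit of Gln-TTG-1-2 lay 192 bp upstream of its start and inside Gln-TTG-1-3, a neighbour of identical sequence that had the same 321 (164 and 139 in the replicates). Thr-AGT-1-7, in an intron of the FGF ligand gene bnl, had 283, with 133 and 153 in the replicates. Met-CAT-1-1, an elongator methionine tRNA, had 199, with 126 and 49.4. The weakest leading gene by the 200 bp rule was Tyr-GTA-1-7 at 169, with 88.1 and 107. The leading lysine, valine and tryptophan genes had summits nearer to another tRNA start. Counting only summits nearest to the own start, the strongest bound lysine gene was Lys-CTT-1-10, at 145. Tyrosine tRNA genes carry an intron in Drosophila, and 8 of 16 intron-containing tRNA genes were bound, against 147 of 274 without (53.6%).

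Anticodons of the same amino acid differed in places. Both Ala-TGC genes, both Leu-TAG genes and both Ser-TGA genes were bound, and 2 of 10 Arg-TCG genes and 1 of 5 Pro-CGG genes were. For arginine, 6 of 10 Arg-ACG genes were bound beside 2 of 10 Arg-TCG genes, and for lysine 7 of 13 Lys-CTT genes beside 0 of 6 Lys-TTT genes. By summits nearest to the own start, 5 of the 10 Arg-ACG genes and 4 of the 13 Lys-CTT genes were bound. Of the 10 Arg-TCG genes 7 lie on the X chromosome. On that chromosome 4 of 8 serine genes and 1 of 16 other tRNA genes were bound. The 4 clustered Lys-TTT-2 genes lie in repeated sequence, in the stretch of 74 kb without a thresholded summit. Anticodon, arm and neighbourhood can therefore not be told apart at these numbers.

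Copies of identical sequence differed in whether they were called. Of the 290 genes, 238 (82.1%) had at least 1 copy with the same sequence, and 34 of 43 groups of identical genes held both bound and unbound members. Because a summit can serve a neighbouring gene of another sequence, the values that follow use only summits whose nearest tRNA start is that of the gene itself, a choice made after the data were seen. By this rule 138 tRNA genes were bound (47.6%), and 36 of the 43 groups were mixed. By the main rule 53.4% of all tRNA genes were bound. At such shares many groups would be mixed whatever their sequence, and the number to be met was not computed. In the 13 identical Lys-CTT-1 genes the ranked signal ran from 13.3 to 145 in the 11 with a summit of their own, and 4 were bound. In the 10 identical Asn-GTT-1 genes it ran from 35.9 to 438 in 7, and 6 were bound. The 11 Ala-AGC-2 genes, whose shared sequence is that of Ala-AGC-2-11 printed above, ran from 43.4 to 343 in 10, with 7 bound. The B box and A box letters are the same within each group. Counting each distinct sequence as 1, 59 of 95 (62.1%) had a bound copy.

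**Figure D4:**
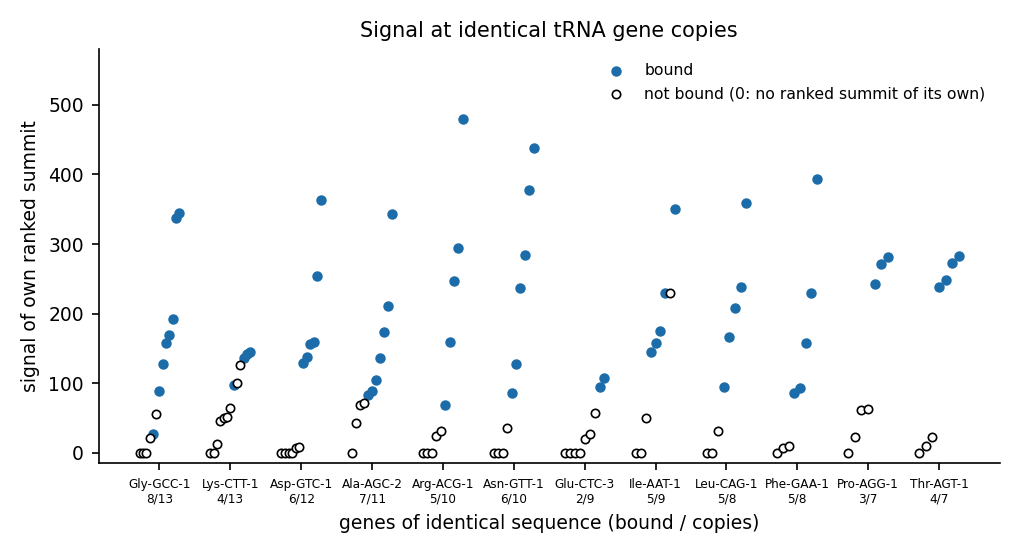
Strongest signal of a series ranked summit within 200 bp of the start and nearest to it among tRNA starts, for the 12 largest groups of tRNA genes with identical sequence. Each point is a gene, filled where a conservative summit was likewise its own and open where not; open points at 0 had no ranked summit of their own. Every group shown holds bound and unbound copies, for example 6 of 10 Asn-GTT-1 genes bound, with a highest signal of 438.

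Reads that lie wholly inside identical copies cannot be assigned to 1 copy, and how the authors treated them is not given in the sources used here, so signals of such copies are uncertain. Flanking sequence did differ in most cases. The median share of 31-base words within 200 bp of the start that occur at 1 place in the genome was 86.8% for bound and 87.3% for unbound genes. Of 9 genes in which at most 50% of the words were unique, 1 was bound; of 23 genes from 50 to 80%, 17 were; of 258 genes above 80%, 137 were (53.1%). In the array Glu-CTC-3-4 to Glu-CTC-3-7 on 3L unique shares were 0 to 64.2% and none of the 4 genes was bound.

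Bound tRNA genes were found both near coding promoters and far from them. None of the 155 bound genes had its summit within 200 bp of a coding TSS, while 75.2% of the other conservative summits did. Of the 3 tRNA genes with a coding TSS within 200 bp, none was bound. The share was 64.5% (49 of 76) from there to 1000 bp, 58.4% (59 of 101) from 1000 to 5000 bp and 42.7% (47 of 110) beyond 5000 bp. Over 1000 bp from a coding TSS, 106 of 211 tRNA genes were bound (50.2%, interval 43.3 to 57.2), against 3.8% of 184 snoRNA genes, 18.5% of 27 snRNA genes and 1.02% of 2353 ncRNA genes at the same distance. At any distance, 6.69% of snoRNA genes, 18.8% of snRNA genes and 3.19% of ncRNA genes were bound.

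**Figure D5:**
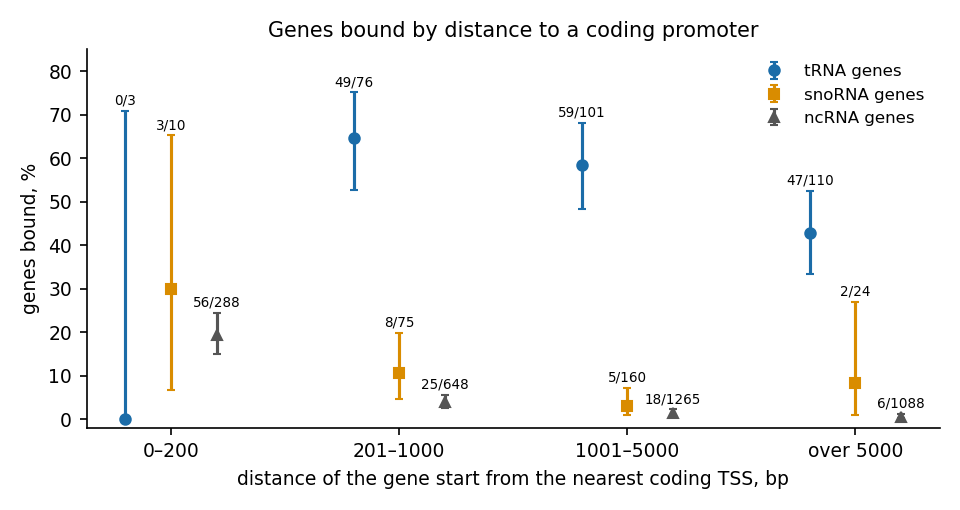
Percent of genes bound by the distance of the gene start from the nearest coding TSS, for tRNA, snoRNA and ncRNA genes. Points are shares, bars exact 95% intervals, and the numbers give bound and annotated genes. Beyond 200 bp the tRNA share lies above both other classes, from 64.5% down to 42.7%.

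tRNA genes made up a visible part of the peaks away from coding promoters. Of 700 conservative summits over 1000 bp from a coding TSS, 95 (13.6%) lay at a tRNA gene, and 30 of the strongest 100 did. A window from 2000 bp upstream of the start to the end of a coding gene held a tRNA summit in 82 coding genes. In 44 of these every peak of the window was a tRNA peak, and in 69 the strongest was. Where a window held only 1 peak, as in most of the 44, both followed from how the genes were picked. Windows of neighbouring coding genes can also share a summit. EcR, the ecdysone receptor gene, had 13 peaks, 7 of them at tRNA genes, and the strongest, at 377, was that of Asn-GTT-1-1. In bnl the strongest peak, at 283, was at Thr-AGT-1-7, and in tkv, a receptor for the BMP ligand Dpp, it was that of Asp-GTC-2-1, at 318 (147 and 167 in the replicates). All 3 peaks of the chitinase gene Cht7 and all 4 of CG4238 were at tRNA genes. These coding genes were chosen after their values were seen. By position, 65 of 128 tRNA genes within a coding intron were bound, 4 of 6 within a coding exon and 86 of 156 between coding genes (55.1%).

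Chaining starts within 2000 bp gave 160 clusters and lone genes, of which 99 held a bound gene. Of 69 clusters with at least 2 genes, 57 held a bound gene and 23 had every gene bound. Gene by gene, 113 of 199 genes in such clusters were bound (56.8%, interval 49.6 to 63.8), beside 42 of 91 lone genes (46.2%, interval 35.6 to 56.9). Neighbours in a cluster can share a summit, which raises the count for clustered genes. The cluster with the most bound genes lay in an intron of Cht7 on 3L, with 5 of 6. There Cys-GCA-1-1 and Cys-GCA-1-2 shared 328, Cys-GCA-1-3 and Lys-CTT-1-12 shared 275, and Cys-GCA-1-4 had 132, and Lys-CTT-1-13 was not bound, with a ranked signal of 45.7. All 4 genes of a glutamine cluster near CG4238 on 2L were bound: Gln-CTG-2-2 at 59.7, Gln-CTG-2-3 at 165, and Gln-CTG-2-4 and Gln-CTG-3-1 at a shared 187. In the cluster of 7 genes within ATP8A on 2R, 4 were bound: Leu-CAA-2-1 and Ile-AAT-1-4 at a shared 318, Ile-AAT-1-7 at 175 and Leu-CAA-1-1 at 147. Ile-AAT-1-5 (49.3) and Ile-AAT-1-6 (no ranked summit), identical in sequence to Ile-AAT-1-7, were not. In the largest X cluster, also of 7 genes, a summit of 238 inside Arg-TCG-2-1 also served Ser-CGA-1-1. Of the other 5 genes, 4 had ranked signals from 3.62 to 40.5 and Arg-TCG-3-1 had no ranked summit.

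The 5 unbound genes with the strongest ranked signals all lay in the remaining cluster of 7 genes, on 2R from 19725691 to 19728887 (dm6, first and last start). Glu-TTC-1-6 and Glu-CTC-2-1 shared a ranked signal of 366, with 209 and 149.6 in the replicates. Glu-TTC-1-5 had 333, with 203 and 141. Glu-CTC-2-2 had 295, with 134 and 174, and iMet-CAT-1-2 had 94.3 and 122 in the replicates. All 7 genes had ranked summits at or above the lowest IDR score in the conservative list, 830, yet none was in any thresholded list. The thresholded lists of the series and of both replicates held no summit over a stretch of 87 kb that contains these genes and the annotated 5S rRNA array of 96 genes and 4 pseudogenes. Within it the ranked list held 36 peaks, 6 of them at or above the score of 830. Per the file inventories, the thresholded lists were made with 1 more input file than the ranked lists; whether that input removed the stretch was not tested. Only 1 other unbound tRNA gene reached that score, Lys-TTT-2-1, whose sequence is printed above, with 159 (73 and 79.9 in the replicates). It lies beside both 7SL RNA genes, just inside a stretch of 74 kb without a summit in any thresholded list. That stretch also holds the other genes of its cluster, Lys-TTT-2-2 to Lys-TTT-2-4, and both 7SL RNA genes. Why it lacks thresholded summits was not tested. With the 8 genes that reached the score counted, 163 would be bound, and this count was added after the data were seen.

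Of the 135 unbound tRNA genes, 84 (62.2%, interval 53.5 to 70.4) had a summit of the series ranked list within 200 bp of the start, against 43.4% of 10643 unbound protein-coding genes. The median of the strongest such signal was 40.3 at these 84 tRNA genes and 34.6 at the unbound protein-coding genes with a ranked summit. With the 155 bound genes included, a ranked summit lay within 200 bp of 239 of 290 starts (82.4%), against 56.9% of protein-coding, 56.2% of snRNA, 38.3% of snoRNA and 32.1% of ncRNA genes. The median signal was then 142 at tRNA genes and 63.5 at protein-coding genes. For 30 tRNA genes no ranked summit lay within 200 bp in any list; this means no peak was listed, and gives no value for the signal there.

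By arm, 63 of 98 tRNA genes were bound on 2R (64.3%), 24 of 41 on 2L (58.5%), 41 of 79 on 3R (51.9%), 22 of 48 on 3L (45.8%) and 5 of 24 on X (20.8%, interval 7.13 to 42.2). Protein-coding genes did not follow this order, with 28.3% bound on X and 22.1 to 24.8% on the 4 autosomal arms. The median ranked signal was 33.3 at the 18 X genes with a ranked summit and 156 at 221 autosomal genes. All 5 bound X genes lay in 1 region from 14014814 to 14117810: Arg-TCG-2-1, Ser-CGA-1-1, Ser-CGA-1-3, Ser-AGA-2-1 and Ser-AGA-2-2. That region also holds many of the unbound X genes. In its largest cluster 2 of 7 genes were bound, and Ser-AGA-1-1 was not bound. No tRNA gene lies on arms 4 or Y. The arm left out of the printed sequences was 2R.

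Other genes read by RNA polymerase III were compared from a list of their transcripts. Of 109 such entries, 4 of them annotated 5S pseudogenes, 3 were bound: the 7SK gene snRNA:7SKa at 969 (536 and 396 in the replicates), snRNA:U6:96Ac with 447 (280 and 167) and RNaseMRP:RNA with 231 (143 and 87). 7SK and U6 RNA genes use promoters upstream of the start, unlike tRNA genes. The other 2 U6 genes, snRNA:7SKb, RNaseP:RNA, both 7SL RNA genes and the 100 5S entries (96 genes and 4 pseudogenes) were not bound. However, the 5S entries all lie in the stretch of 87 kb without thresholded peaks, where 2 of them had a ranked summit. Both 7SL RNA genes lie in the stretch of 74 kb without a thresholded summit, and neither had a ranked summit. Of 21 genes for U1, U2, U4 and U5 RNA, which are read by RNA polymerase II, 4 were bound (19%). Among 21 protein genes of the polymerase III machinery 7 were bound at their start (33.3%, interval 14.6 to 57), near the share of all coding genes: the polymerase subunits Polr3A (173) and Polr3B (175), the TFIIIB subunit Brf (195), Tbp (114), and Pbp45 (108), Pbp49 (421) and Pbp95 (106) of the complex that activates snRNA genes.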

How the data were processed

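Peak lists on dm6 were deposited by the authors for 2 biological replicates of Bgb-eGFP ChIP-seq and for the series (ranked, conservative and further thresholded lists after IDR). Column 7 holds the signal of each peak as the authors deposited it, and column 5 the IDR score the authors gave each peak; the score was used only to compare ranked with conservative peaks. Which aligner, peak caller and scaling were used is not given in the sources used here. One ranked list of the series was not used.

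Summits were set against the Ensembl release 115 annotation; the RefSeq genome has the same arm lengths. The main steps used a window of 200 bp, a limit of 1000 bp to a coding TSS of any transcript, clusters joined within 2000 bp and motif windows of 50 bp either side. Shares carry exact (Clopper-Pearson) 95% binomial intervals. With 1 group there was no test and no p-value. Summit assignment was checked on planted summits. Intervals came from scipy 1.17.1 and figures from matplotlib 3.10.9, run with pandas 2.3.3 and numpy 2.4.6 under Python 3.11.15.

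Genes named are the 20 strongest bound, the strongest bound of each amino acid, those of the 3 clusters with most bound genes and of the largest clusters, the 5 strongest unbound, and coding genes nearest to them; others are examples chosen after their values were seen, among them 4 of the 6 printed bound genes (Ser-AGA-2-3, Asp-GTC-2-1, Ser-GCT-1-1 and Pro-AGG-1-4), the next strongest that could be printed. The tRNA genes, the lists and these rules were chosen with earlier results of these data known. The looser box letters were added after the data were seen. Alternatives were other lists, windows and limits.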

Additional observations from a re-analysis of the deposited data

How the results depend on the processing

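Over 11 results 73 alternative values were computed, and 60 stayed within 1.5 times a main count, the interval of a main share or the spread between replicates. tRNA genes bound numbered 147 to 150 when either replicate was left out, 113 with the stronger 50% of conservative peaks, 135 and 192 with windows of 100 and 500 bp, 145 by overlap of the peak with the gene, 162 within 200 bp of any part of it, and 138 when only a summit nearest to the own start counted (added after the data were seen). The stronger 50% of peaks gave 35.1% of genes bound over 1000 bp from a coding TSS, 49.4% of those nearer, and 2028 protein-coding genes. The window of 500 bp gave 63.5% and 73.4%, and a median ranked signal of 159. Bound genes whose summit lay near a coding TSS numbered 0 to 1 with a replicate left out, 22 within 500 bp and 49 within 1000 bp. CGATAR lay at 15.1% of tRNA summits within 100 bp and 0.719% within 25 bp. The median ranked signal was 62.8 to 84.9 in single replicates, which have their own scales. No paired analysis was possible because the labels give 1 group. Limits are the unknown read depth, the unused control, identical gene copies and the stretches of 87 and 74 kb without thresholded peaks.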
